A study of Mus musculus with 6 samples.

Results

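The genes described here are markers of epithelial cells and their repressors: Cdh1, which encodes E-cadherin, the adhesion gene Epcam, the tight junction genes Cldn4, Cldn6 and Ocln, the keratins Krt8 and Krt18, and the E-box repressors Zeb1 and Zeb2. They were picked by name from what is known of the cadherin switch, with earlier results of these arrays in view, and 9 of the 10 genes on the list are described, out of 17144 genes measured. Cdh2, which encodes N-cadherin, was the tenth and is not analysed here, so the switch from E-cadherin to N-cadherin is seen only from the side of Cdh1. RNA came from wild type ESCs of the V6.5 line, a mouse embryonic stem cell line derived from a blastocyst on a 129SvJae/C57B6 F1 background, and from wild type neural precursor cells (NPCs) differentiated from the same ESCs in vitro, with 3 biological replicates of each and 1 Affymetrix array per replicate. ESCs were kept in DMEM with fetal bovine serum and LIF, and NPCs in N3 medium with bFGF and EGF, so cell type and culture medium cannot be told apart. All samples trace back to 1 ESC line. The sources do not say whether replicates began from separate differentiations, and p-values measure only the spread between these arrays.

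Values are the log2 expression values that the authors made by robust multi-array average (RMA), with 1 value per gene and array, and probe sets differ in how strongly they hybridize, so the absolute values of different genes are not set against each other. Calls needed both an adjusted p under 0.05 (limma, Benjamini-Hochberg adjustment over all 17144 genes) and more than 1.5-fold between the group means. Array medians were 5.75 to 5.76 in ESCs and 5.59 to 5.61 in NPCs. Of the cell type markers that could be named, Pou5f1, the pluripotency factor OCT4, read 12.42, 12.45 and 12.46 in ESCs and 3.68, 3.83 and 3.61 in NPCs, and Fabp7, a radial glia gene, read 3.72, 3.85 and 3.79 in ESCs and 12.87, 12.76 and 13.53 in NPCs. In both markers the cell types lay far apart, in the direction of the labels. Names for most rows came from the top of a published list sorted by the rise in NPCs. The rise of Fabp7 and of the other named NPC and neuron markers is therefore set by how they were named and does not test the labels. Named here were 1 of 6 listed ESC markers, 5 of 7 NPC markers and 2 of 5 neuron markers, but 0 of 8 markers of trophectoderm and other simple epithelium and 0 of 7 of feeder fibroblasts, so the part of such cells in the epithelial values of ESCs was not tested. NPC replicate 3 was looked at because earlier results of these arrays set it apart over all genes. Its distance from the mean of NPC replicates 1 and 2 exceeded a log2 value of 1 at 686 genes, or 4% of them, though at none of the 9 genes described here. The same count was not made for NPC replicates 1 and 2.

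ESCs grow as compact colonies held together by E-cadherin, and they share adhesion and junction genes with simple epithelia such as those of the early embryo. E-cadherin joins neighboring cells through its extracellular domains and links to the actin cytoskeleton through catenins, claudins and occludin seal tight junctions, and keratins 8 and 18 pair into intermediate filaments. When the neural plate forms, cells lose E-cadherin and gain N-cadherin. ZEB1 and ZEB2 are zinc finger factors that bind E-box sequences and repress epithelial genes, Cdh1 among them.

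All 7 epithelial genes fell between ESCs and NPCs, and both ZEB genes rose. Calls were frequent on these arrays, at 34.1% of all genes, with 18.7% lower in NPCs and 15.4% higher. These shares depend on scaling, since centring of each array on its median moved the median difference of all genes from -0.036 to 0.12 on the log2 scale and the higher genes from 45.1% to 55.6% of the called ones. None of the 9 genes changed direction or call under that centring. The differences of the epithelial genes ran from -1.63 in Ocln to -7.71 in Cdh1 on the log2 scale, with a median of -4.87, against -0.036 over all genes. For all 9 genes every NPC array lay on one side of every ESC array. Such a lack of overlap was common too, at 58.7% of all genes (32.6% with NPCs lower and 26.1% with NPCs higher). With 3 arrays a side, the smallest p of a two-sided exact permutation test is 0.1. In whole cultures, fewer cells that express a gene and less RNA per cell cannot be told apart.

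**Figure D1:**
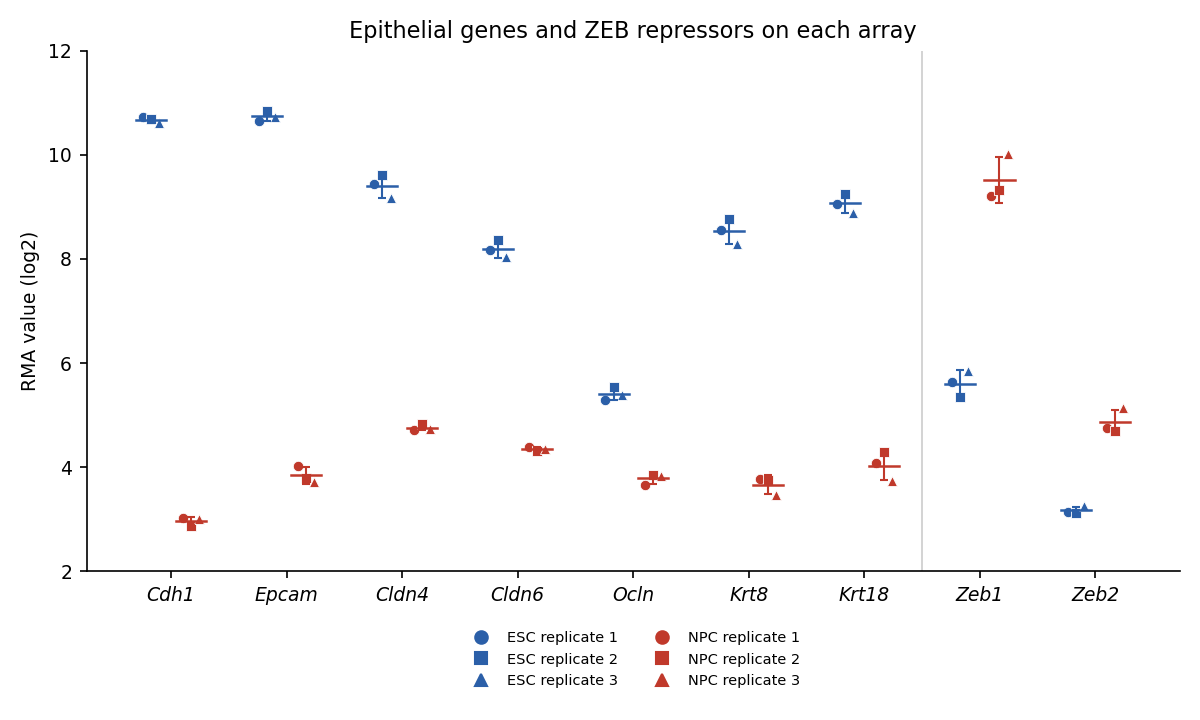
RMA values (y axis, log2) of the 7 epithelial genes and the 2 ZEB genes (x axis) on each of the 6 arrays, with bars for the mean and SD of the 3 arrays of a cell type (blue ESC, red NPC, marker shape for replicate). The epithelial genes are lower in all NPC arrays, down to 2.88 in Cdh1, while Zeb1 climbs to between 9.21 and 10.02.

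Promoter sequences are shown for the 3 epithelial genes that have 2 E-boxes of the CAGGTG type around a single annotated start. ZEB factors are known to bind these letters, but SNAI factors bind them too, so the motif is not particular to ZEB. The sequences are RefSeq windows (build GRCm38.p6) of 300 bases, 250 before the start site and 50 from it on, printed 5′ to 3′ along the gene's strand. Capitals mark the E-box CAGGTG or its reverse complement CACCTG, which are the same motif on opposite strands.
Epcam (chr17:87635729-87636028, plus strand): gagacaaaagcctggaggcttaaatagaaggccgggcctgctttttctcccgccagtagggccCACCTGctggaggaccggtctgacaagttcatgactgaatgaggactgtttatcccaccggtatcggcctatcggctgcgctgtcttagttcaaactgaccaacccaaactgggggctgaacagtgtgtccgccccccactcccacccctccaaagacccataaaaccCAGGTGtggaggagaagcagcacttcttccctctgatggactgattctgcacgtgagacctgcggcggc
Cldn4 (chr5:134946885-134947184, minus strand): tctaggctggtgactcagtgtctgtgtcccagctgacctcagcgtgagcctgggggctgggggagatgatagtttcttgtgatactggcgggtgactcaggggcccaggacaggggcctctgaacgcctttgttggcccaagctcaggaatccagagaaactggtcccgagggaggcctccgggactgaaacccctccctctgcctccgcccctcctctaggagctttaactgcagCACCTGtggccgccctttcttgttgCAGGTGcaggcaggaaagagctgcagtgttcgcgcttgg
Cldn6 (chr17:23679115-23679414, plus strand): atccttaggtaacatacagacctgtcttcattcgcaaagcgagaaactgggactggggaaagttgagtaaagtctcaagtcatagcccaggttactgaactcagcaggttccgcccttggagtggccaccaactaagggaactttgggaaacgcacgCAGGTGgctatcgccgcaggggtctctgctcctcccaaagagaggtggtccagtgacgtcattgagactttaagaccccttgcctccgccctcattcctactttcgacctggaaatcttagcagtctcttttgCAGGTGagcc

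The motif was searched on both strands in the windows of the 7 described genes that the RefSeq table lists, which leaves out Cdh1 and Zeb1. All 6 epithelial genes in the table had at least 1 match, and 4 of them had 2 in a window, against 22.6% and 3.32% of the 27025 genes with a window. Counted by window, 20.2% of all 32851 windows held a match and 2.88% held at least 2. The first base of the match lay 187 and 19 bases before the start site in Epcam, 14 bases before it and 11 bases after it in Cldn4, and 93 before and 40 after in Cldn6. Krt8 had 1 match, 111 bases before its start, and Krt18 had 1, 214 bases before. Ocln has 2 annotated starts, and the match 7 bases after the first start and the match 213 bases before the second are the same site. A further match in the second Ocln window lay 68 bases before that start. None of the 4 windows of Zeb2, of which 2 largely overlap, held the motif, as is the case for most windows of all genes. A match says only that the letters are there, not which factor binds them, and binding of ZEB or SNAI factors was not measured on these arrays.

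**Figure D2:**
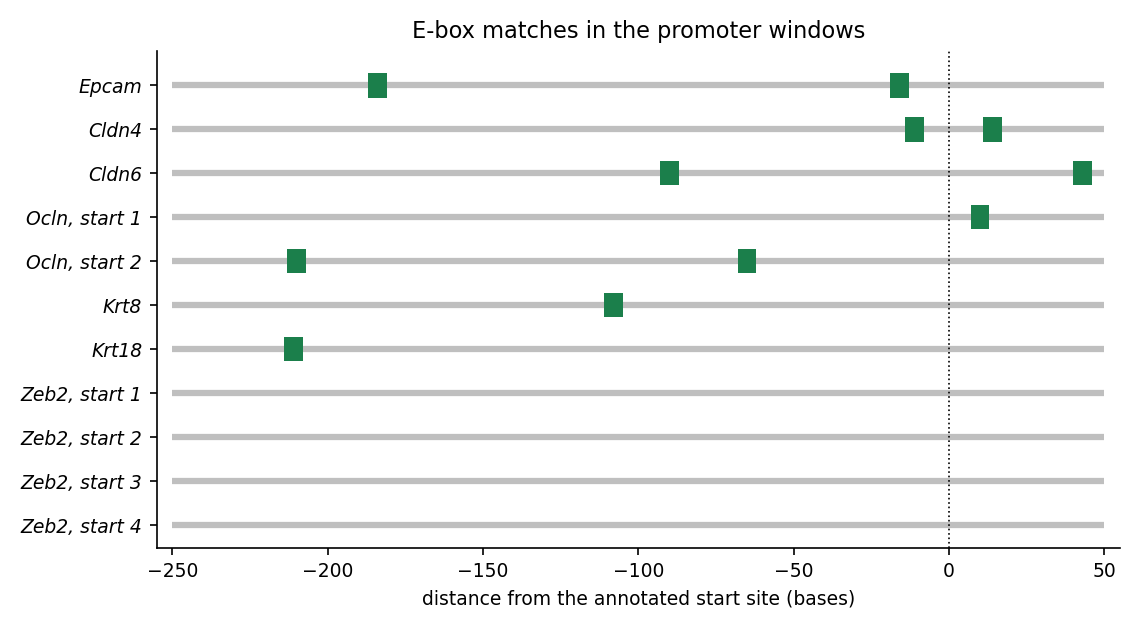
Positions of the E-box (green boxes, drawn 6 bases wide) in the promoter windows of 6 epithelial genes and Zeb2, with distance from the annotated start site in bases on the x axis and 1 gray bar per annotated start. The 7 epithelial windows each hold 1 or 2 matches and the 4 Zeb2 windows hold 0, with overlap between windows of Ocln and between windows of Zeb2.

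Cdh1 had the largest change of the group. E-cadherin, its product, is the adhesion molecule of ESC colonies. Cdh1 (ENSMUSG00000000303_at) read 10.73, 10.68 and 10.61 in ESC replicates 1, 2 and 3, and 3.02, 2.88 and 3.00 in the NPC replicates. Arrays of each cell type lay close together, and a gap of 7.58 separated the lowest ESC array from the highest NPC array. The difference of means, NPC minus ESC, was -7.71 on the log2 scale (standard error 0.08, 95% confidence interval -7.90 to -7.51, adjusted p = 1.07e-08 from limma), which is 209-fold. Ordered by difference, this fall ranked 9 among all 17144 genes. Cdh1 stood at percentile 97.3 ± 0.14 (SD, n = 3 arrays) of an ESC array and at 4.86 ± 1.21 of an NPC array. A percentile also carries the hybridization of the probe set, so it is compared only within a gene. Detection calls were not used here, so the fold depends on how RMA treats dim probes and does not set whether any transcript was left in NPCs.

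Epcam fell nearly as far. It encodes a surface adhesion protein of epithelia and of undifferentiated ESCs. Epcam (ENSMUSG00000045394_at), whose promoter window is printed above, read 10.66, 10.84 and 10.72 in ESCs and 4.02, 3.80 and 3.71 in NPCs. The groups were 6.64 apart at their nearest arrays. The difference was -6.90 (standard error 0.11, 95% confidence interval -7.15 to -6.64, adjusted p = 3.79e-08 from limma), or 119-fold, and ranked 22 among all falls. Its percentile went from 97.4 ± 0.25 to 23.3 ± 3.27 (SD, n = 3 arrays).

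The tight junction genes all fell, by unequal amounts. Cldn4, a claudin that tightens the junctions of many epithelia, went from percentile 91.7 ± 1.23 in ESCs to 39.0 ± 0.86 in NPCs (SD, n = 3 arrays). Cldn4 (ENSMUSG00000047501_at) read 9.44, 9.61 and 9.16 in ESCs and 4.72, 4.82 and 4.74 in NPCs. Its NPC arrays were nearly equal, and its ESC arrays spread over more than the NPC arrays did. The difference was -4.64 (standard error 0.12, adjusted p = 2.78e-07 from limma), or 25.0-fold. Cldn6, a claudin of embryonic epithelia and pluripotent cells, read 8.16, 8.36 and 8.04 in ESCs and 4.38, 4.32 and 4.35 in NPCs. Cldn6 (ENSMUSG00000023906_at) had the smallest spread of the group in NPCs, with an SD of 0.03. It differed by -3.84 (standard error 0.10, adjusted p = 2.74e-07 from limma).

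Ocln, which encodes the tight junction protein occludin, fell the least of the 7. Ocln (ENSMUSG00000021638_at) read 5.30, 5.55 and 5.38 in ESCs and 3.66, 3.85 and 3.83 in NPCs. Its ESC values already lay below the ESC array medians, at percentile 45.6 ± 1.74 (SD, n = 3 arrays), and its NPC values at percentile 22.2 ± 2.08. The difference of -1.63 (standard error 0.10, 95% confidence interval -1.86 to -1.39, adjusted p = 1.29e-05 from limma) is 3.09-fold. The 95% confidence interval of Cldn6, from -4.08 to -3.60, lies wholly beyond that of Ocln. The difference between these falls was not tested, and with no detection calls the NPC values of Ocln were not shown to be above background.

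Krt8 and Krt18 fell by similar amounts. Their products, a type II and a type I keratin, form obligate pairs in the filaments of simple epithelia, and RefSeq lists both genes on chromosome 15 with 2 genes between them. Krt8 (ENSMUSG00000049382_at) read 8.56, 8.76 and 8.29 in ESCs and 3.78, 3.75 and 3.46 in NPCs. Krt18 (ENSMUSG00000023043_at) read 9.06, 9.26 and 8.88 in ESCs and 4.07, 4.28 and 3.73 in NPCs. Both genes were highest in ESC replicate 2, lowest among ESCs in replicate 3, and lowest of all in NPC replicate 3. The difference of Krt8 was -4.87 (standard error 0.15, 95% confidence interval -5.22 to -4.52, adjusted p = 5.07e-07 from limma), or 29.3-fold. That of Krt18 was -5.04 (standard error 0.16, 95% confidence interval -5.42 to -4.65, adjusted p = 6.67e-07 from limma), or 32.9-fold, and the intervals overlap. The difference between the falls of the keratins was not tested.

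**Figure D3:**
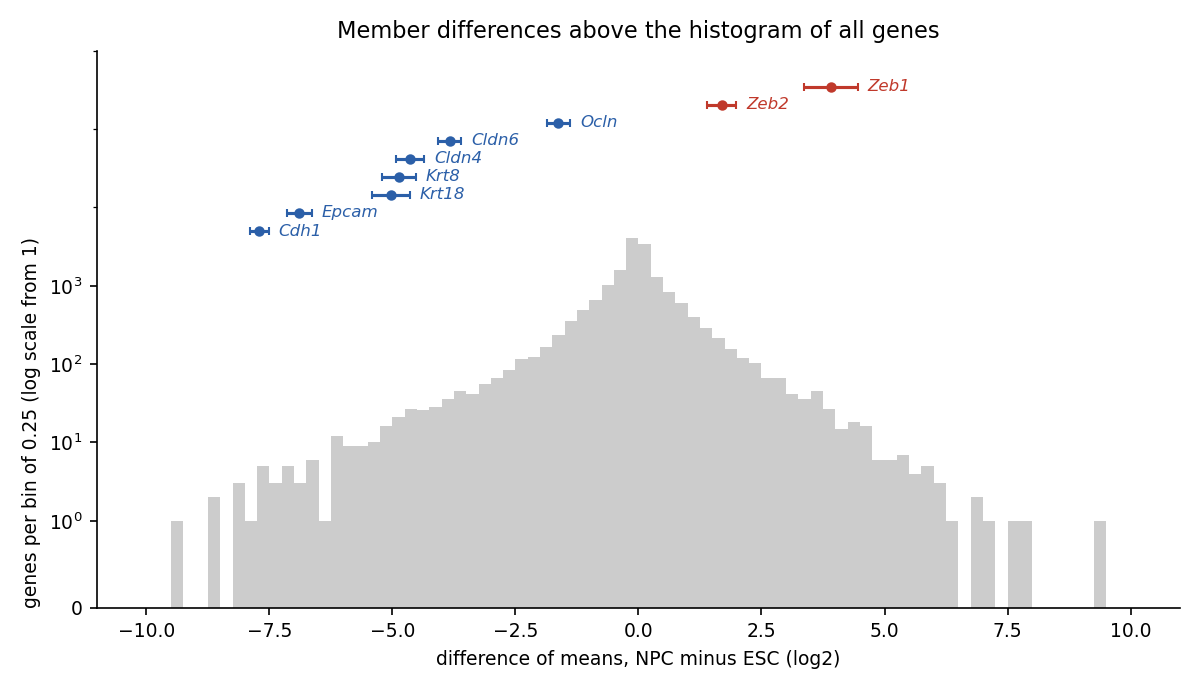
Differences of means, NPC minus ESC (x axis, log2), of the 9 genes with their 95% confidence intervals (blue lower, red higher in NPCs, heights chosen for legibility), above a histogram of the differences of all 17144 genes (gray, genes per bin of 0.25, log scale from 1). Cdh1 at -7.71 and Epcam at -6.90 lie in the thin lower tail, and Ocln at -1.63 and Zeb2 at 1.69 lie nearer the bulk of the genes.

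Zeb1 was the larger riser of the repressor genes. Zeb1 (ENSMUSG00000024238_at) read 5.63, 5.34 and 5.85 in ESCs and 9.21, 9.32 and 10.02 in NPCs. It was highest in NPC replicate 3, and even the lowest NPC array lay 3.37 above the highest ESC array. The difference was 3.91 (standard error 0.23, 95% confidence interval 3.36 to 4.46, adjusted p = 1.06e-05 from limma), or 15.0-fold, and ranked 96 among all rises. Its percentile rose from 48.3 ± 3.02, near the middle of the ESC arrays, to 92.5 ± 2.41 (SD, n = 3 arrays).

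Zeb2 rose too. Zeb2 (ENSMUSG00000026872_at) read 3.15, 3.13 and 3.25 in ESCs and 4.76, 4.70 and 5.13 in NPCs. The groups did not overlap, and all NPC values were below the medians of the NPC arrays. The difference of 1.69 (standard error 0.13, 95% confidence interval 1.39 to 1.99, adjusted p = 3.47e-05 from limma) is 3.22-fold. With no detection calls, the ESC values were not shown to be above background, and the fold of Zeb2 has the same limit as that of Cdh1. On the arrays it moved from percentile 8.61 ± 0.46 to 40.5 ± 3.19 (SD, n = 3 arrays), and its rise ranked 800 among all genes.

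**Figure D4:**
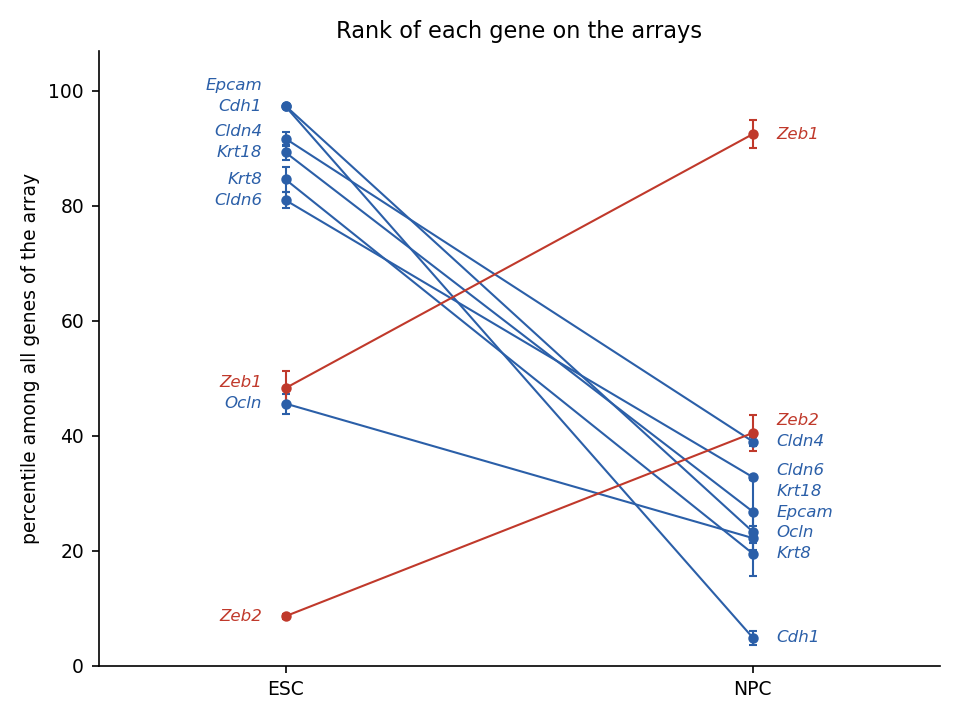
Percentile of each of the 9 genes among all 17144 genes of an array (y axis), as the mean and SD of 3 arrays in ESCs and in NPCs (x axis), blue for genes that fell and red for genes that rose. Cdh1 drops from 97.3 to 4.86 and Zeb1 climbs from 48.3 to 92.5, while Zeb2 ends at 40.5.

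Among NPC arrays, replicate 3 was farthest from the others at the repressors and the keratins. Against the mean of NPC replicates 1 and 2, it was higher by 0.76 in Zeb1 and by 0.40 in Zeb2, and it differed by -0.31 in Krt8, -0.45 in Krt18 and -0.19 in Epcam. In Cdh1, Cldn4, Cldn6 and Ocln it lay within 0.08 of that mean. A larger departure than that of Zeb1 was seen at 7.01% of all genes. Neuron and glia genes differed on this array too. Dcx, a gene of young neurons, read 4.86, 5.06 and 3.76 in the NPC replicates, and the synaptic vesicle gene Syt1 read 6.93, 7.02 and 4.90. These were the 2 of 5 listed neuron markers that could be named, and their levels in ESCs were 3.33 to 3.68 for Dcx and 3.58 to 3.82 for Syt1. Slc1a3, a glutamate transporter of radial glia and astrocytes, read 8.66, 8.72 and 9.80. The part of cell composition in the values of replicate 3 was not tested. Without NPC replicate 3 the difference of Zeb1 was 3.66 and that of Krt18 was -4.89, and both stayed called.

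ESC arrays also differed a little among themselves. Of the 7 epithelial genes, 6 were highest in ESC replicate 2 and 5 were lowest in replicate 3, where shares of 32.4% and 34.5% were found over all genes. Cdh1 was highest in replicate 1, and Epcam and Ocln were lowest there. Both ZEB genes ran the opposite way, lowest in ESC replicate 2 and highest in replicate 3, as did 22.6% of all genes and 17.1% of those called higher in NPCs. Of the 7 epithelial genes, 4 were both highest in ESC replicate 2 and lowest in replicate 3, an order found at 19.6% of all genes and at 28.4% of the 3213 called lower in NPCs. These shifts were small beside the change between cell types. In Krt8, the widest of the epithelial genes in ESCs, the SD was 0.24 on the log2 scale. The SDs of the 9 genes ran from 0.06 to 0.25 in ESCs and from 0.03 to 0.44 in NPCs, around medians over all genes of 0.092 and 0.14.

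Other adhesion genes could be named only where they rose, because names for most rows came from the top of a published list sorted by the rise in NPCs. Their directions are therefore set by how they were named, and their values are given as a description with no test. Among 13 listed cadherins, 6 besides Cdh1 had a name. Cdh10, a type II cadherin of the brain, read 3.71, 3.79 and 3.83 in ESCs and 8.68, 8.69 and 8.63 in NPCs, a difference of 4.89. Cdh4, which encodes R-cadherin, a close relative of N-cadherin, read 4.90, 4.78 and 4.71 in ESCs and 8.42, 8.30 and 8.24 in NPCs, a difference of 3.52. In both genes the arrays of each cell type were nearly equal, with SDs of 0.03 to 0.10. Cdh20 differed by 2.55, Cdh13, the GPI-anchored T-cadherin, by 1.90, Cdh22 by 1.10 and Cdh6 by 0.84.

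Catenins and mesenchymal genes were described in the same way. Ctnnd2, a neural catenin that binds the juxtamembrane part of cadherins, had a mean of 3.75 ± 0.26 in ESCs (SD, n = 3 arrays) and read 9.67, 9.59 and 9.57 in NPCs, a difference of 5.86. Ctnna2, the neural alpha-catenin, differed by 2.19. Vim, the intermediate filament gene of mesenchymal and neural precursor cells, had a mean of 9.20 ± 0.17 in ESCs (SD, n = 3 arrays) and read 12.57, 12.53 and 12.37 in NPCs. Its difference was 3.29. Krt10, a keratin of stratified epidermis, differed by 1.92, so that not every keratin on the arrays was lower in NPCs. Twist1, a bHLH repressor of Cdh1 in mesenchyme, read 4.45, 4.25 and 4.14 in ESCs and 6.66, 6.35 and 7.16 in NPCs, a difference of 2.44. The integrin genes Itgb1 and Itgav, receptors for matrix proteins, differed by 1.03 and 1.01. None of the listed epithelial regulators or desmosome genes could be named, and none of the lists had the 80% of named genes needed for a count.

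**Figure D5:**
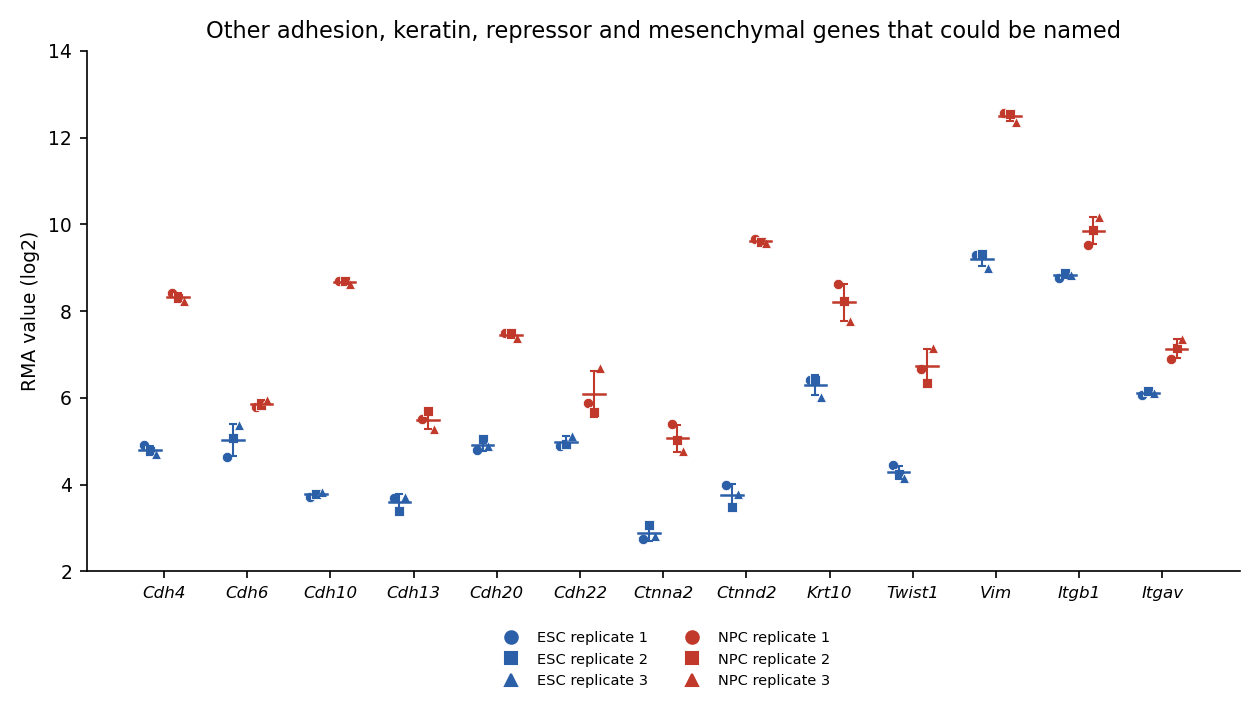
RMA values (y axis, log2) of the 13 other listed genes that could be named (x axis), on each of the 6 arrays, with bars for the mean and SD of the 3 arrays of a cell type (blue ESC, red NPC, marker shape for replicate). Cdh10, Cdh4 and Ctnnd2 rise from below 5 to above 8, and Vim from about 9.20 to 12.49, but these genes have names here because they rose.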

How the data were processed

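RNA from 3 ESC and 3 NPC replicates was hybridized to Affymetrix mouse expression arrays, 1 array each. The authors deposited log2 values made by RMA (background correction, quantile normalization over arrays, probes summarized per Ensembl gene under the BrainCDF annotation). For that annotation, version and genome build were not given in the sources used here. Of 17208 rows, 64 control probe sets were left out, and no other filter, floor or scaling was applied. Arrays give no counts, and their number limits the precision.

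The comparison of NPCs with ESCs used all 6 arrays and no covariates (lmFit and eBayes of limma 3.58.1, R 4.3.3), with Benjamini-Hochberg adjustment over 17144 genes and the thresholds of the methods of the study (adjusted p under 0.05, over 1.5-fold). The fit was tested on simulated data with known answers. In these data few genes changed and both cell types had the same spread, unlike on the real arrays. The fit was also repeated with other tests, scalings, filters and thresholds, with a replicate block and without each array. A percentile is the rank of a gene within its array. The member genes and all lists were chosen with earlier results of these data known. All 10 listed members are named in every case, and other listed genes where an identifier could be named. The described members, Zeb1 and Zeb2 included, were taken by the identifiers given with the gene list. Other genes were named where a row's 6 values equalled those of a named row in the study's tables within 0.0001. The rows of Zeb1 and Zeb2 also had such a match. Columns of the study's own fold changes and test statistics were not used. RefSeq promoter windows (GRCm38.p6) were searched for CAGGTG on both strands. Python 3.11.15, pandas 2.3.3 and matplotlib 3.10.9 made tables and figures.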

Additional observations from a re-analysis of the deposited data

How the results depend on the processing

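The 7 epithelial genes and both ZEB genes kept their direction and their call in all 115 values computed under 13 alternatives: a rebuilt moderated Welch test, a mean-variance trend with robust variances, quantile normalization, median centring, a filter at the median mean value (which left out Ocln and Zeb2), a difference over 2-fold, the replicate number as a block, and each array left out in turn. The highest adjusted p among them was 0.000491. Direction could change only under quantile normalization, median centring or the omission of an array. The other alternatives leave the difference of means as it was by construction, and the 2-fold threshold also keeps the adjusted p. Differences lay between -7.74 and -7.55 for Cdh1, between -6.98 and -6.74 for Epcam, between -1.68 and -1.47 for Ocln, between 3.66 and 4.07 for Zeb1 and between 1.55 and 1.84 for Zeb2. The number of called genes was 5851 (2638 higher, 3213 lower in NPCs), and a difference over 2-fold left 3592, with 1615 higher and 1977 lower, as a stricter threshold must. Omitting single arrays gave 5637 to 6199 called genes, the most without NPC replicate 3. Replicate numbers 1, 2 and 3 occur in both cell types. The pairs of same-numbered arrays deviated from their cell type means with correlations of 0.026, 0.011 and -0.0064 over all genes. Such values do not settle whether same-numbered arrays shared a preparation, and the sample labels give only the number. A fit with this number as a replicate block called 5867 genes (2649 higher, 3218 lower). Each number occurs once per cell type, so this block cannot alter the differences of the 9 genes, from -7.71 for Cdh1 to 3.91 for Zeb1. Values near the low end of an array carry no detection call, which limits the folds of all genes that were dim in 1 cell type, among them Zeb2 in ESCs and Cdh1, Epcam, Ocln, Krt8 and Krt18 in NPCs.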
